A study of Mus musculus with 36 samples.

Results

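Fibroblasts grown in direct contact with the tumour sub-clone named K were compared with the same kind of fibroblasts grown alone. The comparison took the 4 libraries whose labels name clone K and the 4 labelled as mono-culture, 8 of the 36 libraries of the series. The cells were mouse pancreatic fibroblasts of C57BL/6 background, the connective tissue cells of that organ. In the co-culture group they were mixed for 48 h with tumour cells of clone K that carry green fluorescent protein (GFP), and were then separated from them by fluorescence-activated cell sorting on that GFP. Fibroblasts kept without tumour cells formed the mono-culture group, and the labels do not say whether these went through the sorter. Contact with tumour cells, growth in a mixed dish and the sort itself therefore cannot be told apart here. The library titles also number the 4 mono-culture libraries apart from all co-culture libraries, which are numbered in sets by replicate. What this numbering stands for is not stated, and it cannot be told apart from co-culture either. A further 6 clonal co-cultures (E, H, M, N, T and V, 4 libraries each) were made in the same way, and a co-culture labelled KPC1, whose composition the labels do not explain, entered the fit but no comparison. Polyadenylated RNA was read strand-specifically from 200 ng of total RNA after 14 cycles of amplification. The labels do not say that the 4 libraries of a group came from separate cultures, so p values measure the spread between these libraries, which may be technical.

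Fibroblasts of the pancreas rest as stellate and stromal cells, and near a tumour they take on activated states that lay down collagen, contract through smooth muscle actin, or secrete cytokines. Signals that pass between touching or neighbouring cells shape these states. TGF-beta drives contractile and matrix genes, Wnt ligands stabilise beta-catenin and switch on feedback inhibitors such as Axin2 and Notum, Notch is activated by a ligand on the neighbouring cell, and interferons act through a cell surface receptor on antiviral and antigen presentation genes. In bulk RNA, fewer cells that express a gene and less RNA of it in each cell cannot be told apart.

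The clone K libraries held 15602021 to 21053076 counts and the mono-culture libraries 12577931 to 20727926, within the range of the series of 12532122 to 21985538. Levels are given as CPM, counts per 1000000 counts of the tested genes after TMM scaling of the library, for replicates 1 to 4 in that order. A log2 fold change is clone K minus mono-culture with its standard error, and an adjusted p is that of edgeR's quasi-likelihood test with the Benjamini-Hochberg correction over all 14439 genes tested, of 39017 in the table. A gene is said to have risen or fallen where this adjusted p was below 0.05. Genes named for the highest or lowest fold changes or differences in mean CPM were chosen from those without overlap of libraries. For them the absence of overlap is a condition and not a result.

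Of the 14439 genes, 2763 (19.1%) differed between clone K co-culture and mono-culture. In clone K co-culture 1508 genes rose (10.4%) and 1255 fell (8.69%). These shares are the background for the list counts against mono-culture, and a count near them is no result about its list. Lists and members were chosen with earlier results of these data known, so counts set beside these shares are descriptions. At least 2-fold changes were more often upward, with 574 genes higher and 284 lower. The share of the differing genes that were higher was 54.6%, but 45.4% when libraries were scaled to their totals alone and 39.5% in limma on log2(RPKM + 1). The median log2 fold change over all genes tested was -0.01. The 4 clone K libraries lay above all 4 mono-culture libraries for 2050 genes and below all of them for 2110 genes, together 28.8% of the genes tested.

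**Figure D1:**
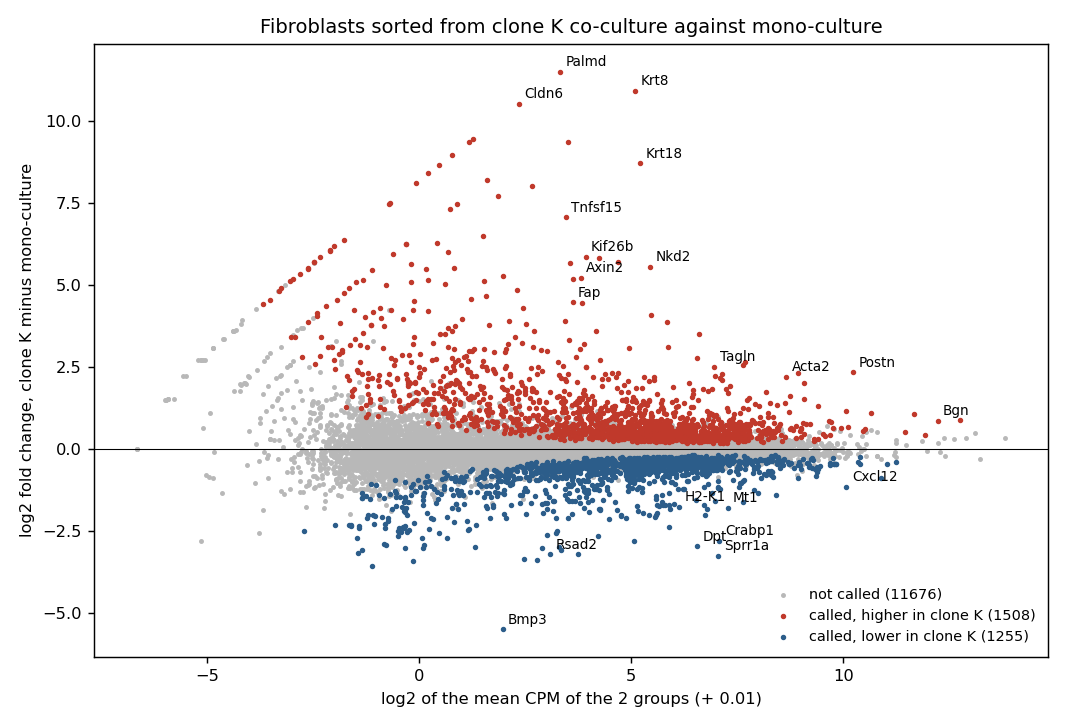
Each point is 1 of 14439 genes; the horizontal axis is the log2 mean CPM of clone K and mono-culture libraries (plus a small constant) and the vertical axis the log2 fold change, clone K minus mono-culture. Red points are the 1508 genes that rose, blue points the 1255 that fell and grey points the remaining genes. Krt8 and Palmd sit at the top, and Bmp3 at -5.48 and Rsad2 at -3.20 sit near the bottom.

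The sorted cells carried the transcripts of fibroblasts. The summed level of 12 fibroblast markers was 20547 to 30586 CPM in clone K libraries and 21956.5 to 23760 CPM in mono-culture. Of these 12, Fap and Pdgfrb rose, Pdpn fell and the other 9 did not pass the test, among them Col1a1 (0.49 ± 0.20, adjusted p = 0.0905), Vim (-0.17 ± 0.18, adjusted p = 0.561) and Pdgfra (-0.24 ± 0.21, adjusted p = 0.487). Immune, endothelial, acinar and Schwann cell markers were low in both groups. Summed over the 10 immune markers with a row in the table, levels were 12.7 to 17.9 CPM in clone K and 13.8 to 16.8 CPM in mono-culture, and none of the 4 that were tested changed. Of the 5 endothelial markers tested, Vwf rose (1.95 ± 0.40, adjusted p = 7.11e-04), while the sum over the endothelial list was 9.54 to 12.1 CPM against 9.32 to 10.5 CPM. Erbb3, a receptor also used by Schwann cells, fell (-0.87 ± 0.31, adjusted p = 0.0438), a call lost on leaving out any 1 of the 8 libraries, and neither of the 2 acinar markers tested changed.

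Epithelial transcripts were the exception. The summed level of 18 epithelial markers was 58.9, 23.7, 262 and 321 CPM in clone K replicates 1 to 4 and 6.28, 5.78, 4.94 and 5.99 CPM in mono-culture. All clone K libraries were above all mono-culture libraries, and replicates 3 and 4 carried several times the level of replicates 1 and 2. Of the 12 epithelial markers tested, Krt8, Cldn6, Krt18, Krt19, Elf3 and Ocln rose and none fell, with a median log2 fold change of 3.37 over the 12. This median depended on the filter, which used all 9 groups, and on the tool. With the 8 libraries alone 5 markers passed the filter, and their median was 8.73. In limma on log2(RPKM + 1) the median was 0.18. With clone K replicates 3 and 4 both left out, 3 of the 12 rose. Other defining markers stayed near 0. Epcam, an adhesion protein of most epithelia, had 1, 0, 0 and 5 counts in clone K and 9, 3, 0 and 1 in mono-culture, Cldn4 and Esrp1 had no count in any of the 8 libraries, and Cdh1 had 12, 2, 23 and 16 counts against 8, 8, 2 and 0.

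The highest fold changes of the comparison included several of these epithelial genes. Palmd (palmdelphin, a membrane-associated protein; ENSMUSG00000033377) stood at 5.99, 2.34, 43.2 and 28.3 CPM in clone K and had no count in any mono-culture library, at least 115-fold higher when a mono-culture library is credited with 3 counts. Cldn6, a tight junction claudin, stood at 3.96, 1.5, 22.6 and 12.5 CPM and also had no mono-culture count, at least 58.3-fold higher on the same terms. Krt8, a keratin of simple epithelia, stood at 23.1, 7.80, 105 and 136 CPM against 2 mono-culture counts in all, both in replicate 4, a ratio of 2575 with a 95% interval of 713 to 21268 for counting error. For each of the 3 genes replicate 2 was the lowest and replicates 3 and 4 the highest of the clone K libraries. No library overlapped between groups, as the rule for naming them required. Keratin genes have near-copies in the genome, so the split of reads between each of Krt8 and Krt18 and its own copies is uncertain.

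The same order of libraries, with replicate 2 lowest, replicate 1 next and replicates 3 and 4 highest, held for 9 of the 12 genes with the highest fold changes: Palmd, Krt8, Cldn6, Cadm1, Krt18, Ifi202b, Wfdc2, Tspan8 and Nptx1. It held for 9.77% of all genes tested. Cadm1, a cell adhesion molecule, stood at 5.70, 2.86, 50.8 and 31.9 CPM against 2 mono-culture counts, a ratio of 843 (95% interval 233 to 6965). Wfdc2, a secreted protease inhibitor of epithelia, stood at 2.78, 1.17, 26.6 and 19.9 CPM, a ratio of 313 (107 to 1522). Tspan8, a tetraspanin, had a ratio of 270 (74.4 to 2234) and Ifi202b, a nuclear protein of the interferon-inducible p200 family, had a ratio of 465 (83.0 to 18386). Krt18, the partner of Krt8, stood at 23.5, 9.30, 118 and 143 CPM against 0.165, 0.220, 0.0761 and 0.183 CPM (8.72 ± 1.18, adjusted p = 3.87e-06). Nptx1, a secreted pentraxin, stood at 7.69, 5.14, 71.2 and 63.4 CPM against 0.716, 0.440, 0.608 and 0.777 CPM (5.83 ± 1.15, adjusted p = 4.88e-04), a call lost when replicates 3 and 4 were both left out. In 108 of the 574 genes that rose at least 2-fold (18.8%), replicates 3 and 4 were both more than 2 times replicates 1 and 2, as in 1.57% of all genes tested. The part of the epithelial transcripts in these changes was not tested.

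The 3 remaining genes of the 12 highest had another order of libraries. Tnfsf15, a TNF family ligand that acts on endothelium and T cells, stood at 24.8, 29.4, 22.6 and 10.3 CPM in clone K and 0.220, 0.220, 0.152 and 0.0457 CPM in mono-culture (7.07 ± 0.68, adjusted p = 1.42e-08). Kif26b, a kinesin that takes part in cell polarity and adhesion, stood at 42.6, 35.5, 30.6 and 10.8 CPM against 0.716, 0.440, 0.304 and 0.503 CPM (5.87 ± 0.55, adjusted p = 1.08e-08). Ism1, a secreted protein named isthmin, stood at 3.39, 8.52, 7.46 and 3.19 CPM against 0.0550, 0.0550, 0 and 0.0914 CPM (6.49 ± 0.86, adjusted p = 2.18e-06). In these 3 genes clone K replicate 4, the library richest in epithelial transcripts, was the lowest clone K library.

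**Figure D2:**
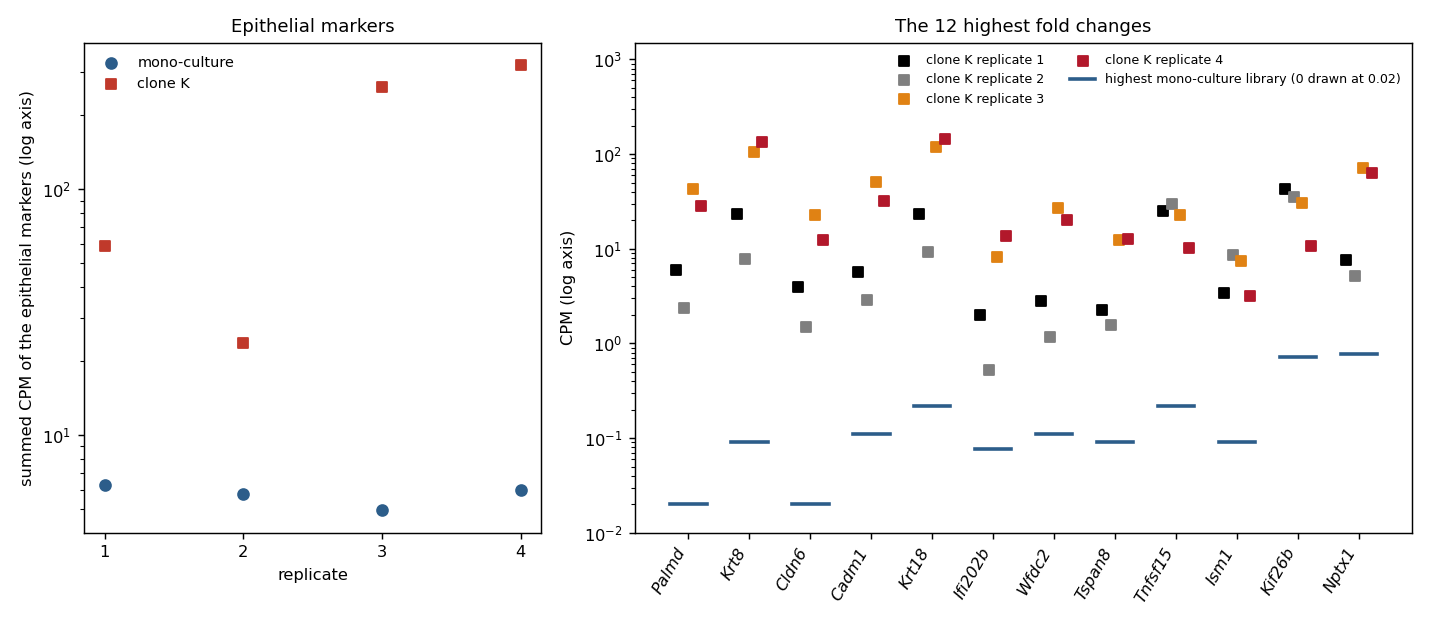
Left, the summed CPM of 18 epithelial markers (log axis) by replicate, with clone K as red squares at 23.7 to 321 CPM and mono-culture as blue circles at 4.94 to 6.28 CPM. Right, the CPM (log axis) of the 12 genes with the highest fold changes in clone K replicates 1 to 4, with a blue bar at the highest mono-culture library; replicate 2 is the lowest clone K library in 9 of the 12 and replicate 4 in Tnfsf15, Kif26b and Ism1.

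Interferon-stimulated genes were lower in clone K co-culture. Of 38 such genes listed, 37 were tested, 35 fell and none rose, where 8.69% of all genes fell. The median log2 fold change of the listed genes was -1.81, beside -0.01 over all genes tested. The 2 listed genes that did not pass the test were Mx1 (-1.04 ± 0.67, adjusted p = 0.302) and Stat2 (-0.86 ± 0.32, adjusted p = 0.0553). With any 1 library left out 32 to 34 of the 37 fell, and 31 fell with clone K replicates 3 and 4 left out.

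The sequences that interferon acts through lie close to the start of many of these genes. The interferon-stimulated response element (ISRE) was searched as GAAANNGAAA on either strand in the 250 bases before each start in RefSeq's annotation of GRCm38.p6. It was present in 15 of the 27 tested interferon-stimulated genes for which a promoter was at hand (55.6%) and in 936 of all 27025 genes with one (3.46%). Counted over promoters, of which a gene can have several, it was in 15 of 30 (50%) and in 978 of 32851 (2.98%). A match of letters is a description of the window and not evidence of a bound factor. Of the genes whose levels are given next, Cmpk2, Irf7 and Ifit2 held no match. The windows of Rsad2 (chr12:26456453-26456702, minus strand), Ifit1 (chr19:34640639-34640888, plus strand), Ifit3 (chr19:34583279-34583528, plus strand) and Isg15 (chr4:156200819-156201068, minus strand) are printed as examples that hold a match. Each runs 5′ to 3′ towards the start on the gene's own strand, and capitals mark the matches.
Rsad2: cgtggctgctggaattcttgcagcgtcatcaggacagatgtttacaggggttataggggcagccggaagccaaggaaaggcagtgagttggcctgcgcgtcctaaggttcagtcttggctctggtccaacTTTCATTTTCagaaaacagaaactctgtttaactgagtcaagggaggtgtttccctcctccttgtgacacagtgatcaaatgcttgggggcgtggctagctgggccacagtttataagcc
Ifit1: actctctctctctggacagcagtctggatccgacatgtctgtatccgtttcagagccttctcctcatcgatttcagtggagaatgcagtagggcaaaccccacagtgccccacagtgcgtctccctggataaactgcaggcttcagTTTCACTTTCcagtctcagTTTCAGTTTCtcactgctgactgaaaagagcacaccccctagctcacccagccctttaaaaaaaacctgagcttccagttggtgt
Ifit3: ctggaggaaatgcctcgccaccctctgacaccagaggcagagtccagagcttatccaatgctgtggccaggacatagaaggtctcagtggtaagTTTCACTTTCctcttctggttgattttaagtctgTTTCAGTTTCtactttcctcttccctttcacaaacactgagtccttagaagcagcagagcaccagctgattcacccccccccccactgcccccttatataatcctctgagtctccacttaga
Isg15: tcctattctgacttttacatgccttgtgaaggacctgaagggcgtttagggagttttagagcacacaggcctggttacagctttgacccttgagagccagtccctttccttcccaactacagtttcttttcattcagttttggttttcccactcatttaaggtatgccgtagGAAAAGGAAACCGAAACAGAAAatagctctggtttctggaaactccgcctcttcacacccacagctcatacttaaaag
Rsad2 held 1 match, 120 bases before the start. Ifit1 held 2, at 104 and 85 bases, and Ifit3 held 2, at 156 and 122 bases. Isg15 held 3 matches that overlap in 1 run, the first beginning 78 and the last beginning 66 bases before the start.

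Rsad2, which encodes the antiviral enzyme viperin, stood at 1.7, 1.69, 1.27 and 1.98 CPM in clone K and 18.1, 12.7, 10.3 and 20.1 CPM in mono-culture, 9.18-fold lower in clone K (-3.20 ± 0.43, adjusted p = 2.92e-06). Its neighbour Cmpk2, a mitochondrial nucleotide kinase, stood at 1.23, 0.650, 1.27 and 1.57 CPM against 12.6, 7.59, 8.21 and 21.8 CPM (-3.39 ± 0.49, adjusted p = 8.36e-06). Oas2, which makes the oligoadenylates that activate RNase L, stood at 3.02, 1.69, 1.59 and 2.34 CPM against 26.2, 9.96, 8.75 and 28 CPM (-3.07 ± 0.57, adjusted p = 2.43e-04). In all 3 the groups did not overlap, as the rule for naming them required, and mono-culture replicates 1 and 4 stood above replicates 2 and 3. Ifit3, which binds foreign RNA with its relatives, stood at 14.7, 16.8, 18.8 and 26.7 CPM against 114, 68.1, 68.4 and 147 CPM (-2.37 ± 0.53, adjusted p = 0.00187). Ifit1 stood at 44.1, 43.0, 49.9 and 63.0 CPM against 178, 128, 119 and 219 CPM (-1.69 ± 0.28, adjusted p = 6.85e-05). Isg15, a ubiquitin-like modifier, stood at 35.7, 27.6, 26.8 and 33 CPM against 116, 64.6, 66.8 and 141 CPM (-1.66 ± 0.33, adjusted p = 5.69e-04). Here too every clone K library was below every mono-culture library and mono-culture replicates 1 and 4 were the highest. Irf7, a regulator of the pathway, fell from 77.3 ± 31.8 to 23.4 ± 6.76 CPM (-1.73 ± 0.45, adjusted p = 0.00606), as mean ± SD of 4 libraries. The smallest change that passed the test was that of Ifit2, at 77.6, 92.4, 82.4 and 83.8 CPM against 115, 114, 108 and 116 CPM (-0.43 ± 0.15, adjusted p = 0.0427).

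Genes that load peptides on MHC class I molecules, the complexes that show fragments of a cell's proteins to T cells, fell with them. All 14 listed genes were tested, 13 fell and none rose, with a median log2 fold change of -1.11. H2-K1, a class I heavy chain, stood at 47.9, 28.9, 27.2 and 24.1 CPM in clone K and 106, 93.7, 78.4 and 152 CPM in mono-culture (-1.75 ± 0.21, adjusted p = 4.68e-07). H2-D1, another heavy chain, stood at 85.6, 55.8, 60.7 and 60.8 CPM against 160.0, 114, 118 and 189 CPM (-1.14 ± 0.19, adjusted p = 4.95e-05). The 2 heavy chains are similar in sequence, so the split of reads between them is uncertain, and clone K did not overlap mono-culture for either. Tap1, a subunit of the peptide transporter, fell 2.01-fold and Psmb8, a subunit of the immunoproteasome, 2.71-fold, again without overlap. B2m, the shared light chain, fell less, from 1051 ± 138 to 771 ± 70.1 CPM (mean ± SD; -0.45 ± 0.13, adjusted p = 0.0124), with its groups touching. H2-T23, a non-classical class I gene, did not pass the test (-0.57 ± 0.22, adjusted p = 0.0722). The ISRE letters were present before 2 of the 12 tested genes with a promoter at hand, B2m and H2-T23. With clone K replicates 3 and 4 left out, 12 of the 14 fell.

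**Figure D3:**
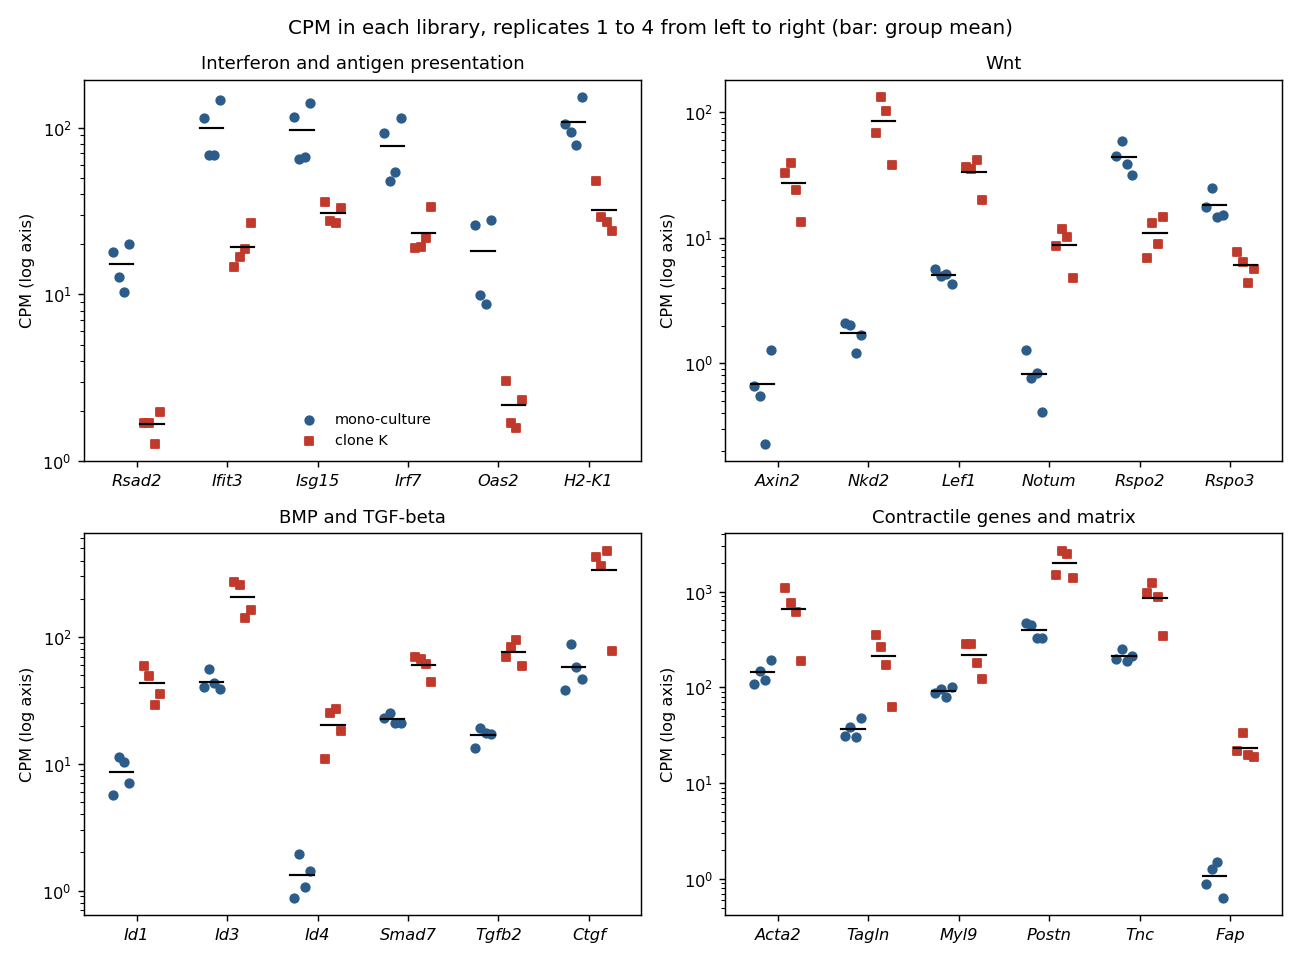
CPM (log axis) of 24 genes in each of the 4 mono-culture libraries (blue circles) and 4 clone K libraries (red squares), replicates 1 to 4 from left to right, with a bar at the group mean. Rsad2, Ifit3, Isg15, Irf7, Oas2, H2-K1, Rspo2 and Rspo3 are lower in every clone K library, and Ctgf and Acta2 are the only genes drawn whose groups overlap, through clone K replicate 4.

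Chemokines and inflammatory cytokines moved in both directions. Of 22 tested, 6 rose (Cxcl5, Il6, Tslp, Il33, Has2 and Cx3cl1) and 7 fell (Cxcl12, Ccl7, Ccl5, Ccl2, Cxcl10, Il1rl1 and Ccl9), with a median log2 fold change of 0.08. The CC chemokines that draw monocytes were on the lower side. Ccl2 stood at 26.6, 17.4, 35.9 and 32.4 CPM in clone K and 92.2, 88.7, 90.9 and 91.0 CPM in mono-culture (-1.69 ± 0.42, adjusted p = 0.00433). Ccl9 stood at 1.65, 1.04, 1.64 and 4.54 CPM against 12.1, 15.6, 12.4 and 15.2 CPM (-2.61 ± 0.39, adjusted p = 1.43e-05). Neither overlapped between groups. Il1rl1, the receptor for interleukin 33, fell 4.31-fold (-2.11 ± 0.33, adjusted p = 2.09e-05), whereas Il33 itself rose 2.34-fold (1.22 ± 0.31, adjusted p = 0.00509). Il6, the cytokine of inflammatory fibroblasts, stood at 4.81, 3.19, 3.28 and 0.990 CPM against 0.495, 0.550, 0.608 and 0.320 CPM (2.65 ± 0.43, adjusted p = 3.39e-05), with replicate 4 the lowest clone K library and still above mono-culture. Cxcl12, the ligand of CXCR4, was among the 5 largest drops in mean CPM of genes that fell without overlap and stood at 683, 743, 637 and 629 CPM against 1639, 1667, 1340.4 and 1279 CPM (-1.14 ± 0.37, adjusted p = 0.0296). Its groups were far apart, but the adjusted p rose to between 0.053 and 0.075 when any clone K library was left out, and the call was also lost without mono-culture replicate 1 or 2. Cxcl5 rose from a trace, 0.0550, 0, 0 and 0 CPM, to 0.236, 0, 0.476 and 0.90 CPM, and its groups overlapped.

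Genes of the NF-kappaB feedback loop changed little as a list. Of 15 tested, Tnfaip2 rose and Sod2 and Vcam1 fell, where 10.4% of all genes rose and 8.69% fell. The median log2 fold change was -0.15. Tnfaip2 lost its call without clone K replicate 2 or 3 or mono-culture replicate 1, 2 or 4, and 1 gene of the list fell, rather than 2, without mono-culture replicate 4. Vcam1, the adhesion receptor for integrin-bearing leukocytes, stood at 124, 99.1, 128 and 157 CPM against 268, 256, 244 and 265 CPM (-1.03 ± 0.14, adjusted p = 4.33e-06), with no overlap. Among 11 complement genes tested only C3, the central component, changed. It fell from 47.3 ± 15.9 to 10.9 ± 5.10 CPM (mean ± SD; -2.11 ± 0.54, adjusted p = 0.00524), and the call was absent with clone K replicates 3 and 4 left out.

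Wnt targets and modulators rose in clone K co-culture. Of 26 tested genes of the list, 17 rose and 3 fell, with a median log2 fold change of 1.87. The feedback genes that beta-catenin switches on rose together. Axin2, a scaffold that destroys beta-catenin, stood at 33.1, 39.3, 24.1 and 13.4 CPM in clone K and 0.661, 0.550, 0.228 and 1.28 CPM in mono-culture, 37.4-fold higher (5.23 ± 0.51, adjusted p = 1.7e-08). Nkd2, an inhibitor that binds Dishevelled, stood at 67.8, 132, 102 and 38.3 CPM against 2.09, 2.04, 1.22 and 1.69 CPM (5.57 ± 0.58, adjusted p = 5.96e-08). Lef1, a transcription factor partner of beta-catenin, stood at 36.4, 35.4, 41.4 and 19.8 CPM against 5.61, 5.01, 5.17 and 4.30 CPM (2.73 ± 0.22, adjusted p = 1.43e-10). None of the 3 overlapped between groups, and replicate 4 was the lowest clone K library in each. Nkd1 rose 10.1-fold and Notum, a secreted enzyme that strips the lipid from Wnt ligands, rose 10.7-fold (adjusted p = 4.55e-06 and 1.68e-07).

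Ligands and extracellular modulators of Wnt were also higher, with the R-spondins as exceptions. Wnt11 rose 9.51-fold, Wnt4 6.46-fold and Wnt5a 2.75-fold, and the secreted antagonists Sfrp1 and Dkk2 rose 4.60-fold and 6.33-fold. Wnt5a, a ligand of non-canonical signalling, stood at 37.6, 47.6, 55.7 and 31.9 CPM against 14.6, 15.3, 14.0 and 18.6 CPM (1.46 ± 0.23, adjusted p = 2.96e-05). R-spondins keep Wnt receptors at the membrane, and these were among the 3 genes that fell, with Wnt9a as the other. Rspo2 stood at 6.88, 13.1, 8.88 and 14.5 CPM against 45.1, 59.4, 38.9 and 31.5 CPM (-2.01 ± 0.39, adjusted p = 3.42e-04). Rspo3 stood at 7.69, 6.37, 4.39 and 5.67 CPM against 17.7, 25, 14.6 and 15.2 CPM (-1.59 ± 0.30, adjusted p = 2.22e-04). For both R-spondins every clone K library was below every mono-culture library. None of the 17 higher Wnt genes had replicates 3 and 4 both more than 2 times replicates 1 and 2. Of all genes tested 1.57% did, and of the genes that rose at least 2-fold 18.8%. The part of the epithelial transcripts was not tested. With replicates 3 and 4 left out, 15 Wnt genes rose.

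BMP and activin genes and the Id genes changed in 16 of 19 tested members, 12 upward and 4 downward, with a median log2 fold change of 1.75. The Id proteins, which block basic helix-loop-helix factors and are induced by BMP signalling, rose in all 4 members tested. Id1 stood at 58.7, 49.3, 29.3 and 35.4 CPM in clone K and 5.67, 11.4, 10.4 and 6.99 CPM in mono-culture (2.33 ± 0.37, adjusted p = 3.18e-05). Id3 stood at 273, 256, 141 and 163 CPM against 40.2, 55.7, 43.0 and 38.9 CPM (2.23 ± 0.42, adjusted p = 2.56e-04), and Id4 at 10.9, 25.3, 26.9 and 18.1 CPM against 0.881, 1.93, 1.06 and 1.42 CPM (3.92 ± 0.43, adjusted p = 1.19e-07). No clone K library overlapped mono-culture in these 3. Id2 rose 3.37-fold, and Smad6, an inhibitor of BMP signalling that the pathway itself induces, rose 3.89-fold (adjusted p = 0.0064 and 3.74e-05). Secreted antagonists rose as well, with Grem1 2.54-fold and Fst, the activin antagonist follistatin, 12.1-fold higher. The activin subunit Inhba rose 4.91-fold. Bmp3, a BMP that opposes the others, had the lowest fold change of the named genes: 0.330, 0.13, 0 and 0.180 CPM against 8.2, 8.64, 4.79 and 8.91 CPM, 44.6-fold lower (-5.48 ± 1.0, adjusted p = 3.12e-04). Bmp6 fell 4.51-fold, and the antagonists Chrdl1 and Chrd fell. Bmp2 rose on average (2.23 ± 0.62, adjusted p = 0.0104) at 1.7, 0.520, 7.88 and 6.52 CPM, following the order of the epithelial transcripts and overlapping mono-culture. With clone K replicates 3 and 4 left out, 11 of the list rose and 2 fell. Of the 12 higher genes, 1 had replicates 3 and 4 both more than 2 times replicates 1 and 2.

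TGF-beta ligands and targets rose in 14 of 18 tested genes, and Tgfbr2 and Tgfbi fell, with a median log2 fold change of 1.14. Tgfb2 stood at 69.0, 83.5, 94.0 and 59.2 CPM against 13.3, 19, 17.5 and 17.2 CPM (2.19 ± 0.21, adjusted p = 1.42e-08), and Tgfb3 rose 2.82-fold (1.5 ± 0.20, adjusted p = 2.48e-06). Feedback and target genes followed. Smad7, the inhibitory SMAD, stood at 69.4, 66.8, 60.8 and 44.5 CPM against 22.8, 25, 21.1 and 21.1 CPM (1.42 ± 0.17, adjusted p = 4.14e-07), and Pmepa1 and Ltbp2 rose 3.50-fold and 4.30-fold. Ctgf, a matricellular protein, stood at 429, 366, 478 and 78.2 CPM against 37.9, 87.5, 58.4 and 46.3 CPM (2.55 ± 0.43, adjusted p = 8.08e-05). Its replicate 4 lay inside the mono-culture range. The receptor Tgfbr2 fell 1.53-fold and Tgfbi, a secreted matrix protein, 2.00-fold, both without overlap. None of the 14 higher genes had replicates 3 and 4 both more than 2 times replicates 1 and 2, beside 1.57% of all genes tested. Of the genes that rose at least 2-fold 18.8% did. What the epithelial transcripts contributed was not tested. The counts of higher and lower TGF-beta genes were again 14 and 2 with replicates 3 and 4 left out. Without clone K replicate 1, 1 gene fell rather than 2.

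Notch genes rose in 9 of 13 tested and fell in none (median log2 fold change 1.16). The targets Hey1 and Heyl rose most, from very low levels. Hey1 stood at 3.72, 4.49, 2.11 and 2.29 CPM against 0.330, 0.110, 0.152 and 0.366 CPM (3.61 ± 0.33, adjusted p = 3.46e-09). Jag1, a ligand, stood at 52.9, 52.9, 58.5 and 33.9 CPM against 13.4, 15.3, 14.5 and 21.6 CPM (1.6 ± 0.26, adjusted p = 4.02e-05), and the receptor Notch3 rose 2.24-fold. Hey1, Jag1 and Notch3 did not overlap between groups, and 7 genes of the list rose with clone K replicates 3 and 4 left out. Of the 9 higher Notch genes, 1 had replicates 3 and 4 both more than 2 times replicates 1 and 2. Of 12 Hedgehog genes tested 5 rose, among them Boc, Ptch1, Foxf2 and Gli3, and none fell (median 0.35). Boc, a co-receptor, rose 2.61-fold and Ptch1, the receptor and a target of the pathway, 2.25-fold, but Gli1, the usual readout, did not pass the test at 2.17, 1.30, 1.85 and 1.71 CPM against 1.05, 0.990, 1.52 and 1.74 CPM (0.42 ± 0.38, adjusted p = 0.497). The Hedgehog count of 5 was 2 without clone K replicate 3 and 3 without mono-culture replicate 4. Among 14 YAP and TEAD targets, Ctgf, Cyr61, Crim1 and Tead1 rose and F3 fell (median 0.17), beside 10.4% and 8.69% of all genes. The 4 higher calls were 2 without clone K replicate 2 or mono-culture replicate 1, and the call on F3 was lost without clone K replicate 1, 2 or 4 or mono-culture replicate 1, 2 or 3. Cyr61 stood at 1508, 898, 1071 and 370.3 CPM against 197, 588, 551 and 194 CPM, and its groups overlapped (1.33 ± 0.34, adjusted p = 0.00504).

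Contractile genes of the smooth muscle kind rose in 13 of 15 tested, and none fell (median log2 fold change 1.01). Acta2, the smooth muscle actin that marks myofibroblasts, stood at 1097, 755, 619 and 190.4 CPM in clone K and 109, 148, 121 and 195 CPM in mono-culture (2.21 ± 0.39, adjusted p = 1.13e-04). Tagln, an actin-binding protein, stood at 349, 265, 171 and 62.6 CPM against 30.8, 38.4, 30.5 and 48.0 CPM (2.52 ± 0.47, adjusted p = 2.51e-04). Both were spread widely among clone K libraries, with replicate 4 the lowest, inside the mono-culture range for Acta2 and just above it for Tagln. Myl9, the regulatory light chain of myosin, stood at 282, 282, 179.9 and 121 CPM against 87.6, 96.7, 79.0 and 101 CPM (1.25 ± 0.30, adjusted p = 0.00329), and Cnn1, calponin, rose 3.71-fold. Des (-0.02 ± 0.18, adjusted p = 0.951) and Actn1 (0.40 ± 0.16, adjusted p = 0.0886) did not pass the test. Leaving out clone K replicates 3 and 4 left the count at 13. The CArG box, the letters to which serum response factor binds before many muscle genes, was found in 3 of the 13 tested contractile genes with a promoter at hand (Cnn2, Myl9 and Vcl; 23.1%) and in 439 of all 27025 genes with one (1.62%). The window of Myl9 (chr2:156775214-156775463, plus strand, GRCm38.p6, RefSeq) is printed as the example whose gene rose without overlap, with the match, 161 bases before the start, in capitals.
Myl9: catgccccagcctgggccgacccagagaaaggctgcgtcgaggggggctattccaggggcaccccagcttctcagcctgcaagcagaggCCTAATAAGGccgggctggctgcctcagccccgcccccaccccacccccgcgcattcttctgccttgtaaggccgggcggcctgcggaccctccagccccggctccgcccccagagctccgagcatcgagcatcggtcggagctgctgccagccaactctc

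Matrix genes were higher in part. Of 25 tested interstitial collagens and matrix proteins 12 rose and none fell (median log2 fold change 0.62), and 8 rose without clone K replicates 3 and 4. The count was 7 without clone K replicate 2. Postn, the matricellular protein periostin, stood at 1483, 2669, 2481 and 1371 CPM against 471, 448, 326 and 328 CPM (2.35 ± 0.25, adjusted p = 4.75e-08). Col12a1, a fibril-associated collagen, stood at 827, 1186, 949.9 and 304 CPM against 151, 195, 116 and 186 CPM (2.33 ± 0.37, adjusted p = 3.56e-05), and Tnc, tenascin C, rose 4.03-fold (2.01 ± 0.32, adjusted p = 3.85e-05). These 3 did not overlap between groups, which for Postn and Col12a1 was a condition for naming them. Among genes that rose without overlap, the largest gains in mean CPM were those of Bgn, Lox, Postn, Col6a1 and Col12a1. Bgn, the proteoglycan biglycan, stood at 6805, 6740.1, 6881 and 4301 CPM against 3287, 3589, 3184 and 3452 CPM (0.87 ± 0.17, adjusted p = 2.62e-04), and Col6a1 at 2989, 3655, 3689 and 2797 CPM against 2345, 2303, 2258 and 2304 CPM (0.51 ± 0.16, adjusted p = 0.0229). The call on Col6a1 was lost without clone K replicate 2 or 3. The major fibrillar collagens did not pass the test, with Col1a1 at 10082, 12586, 11982 and 6188 CPM against 7018, 7935, 6670.1 and 7449 CPM.

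Enzymes that process collagen rose in 4 of 16 tested, P4ha3, Lox, Loxl3 and Adamts2, and the median was 0.02. Lox, which crosslinks collagen and elastin, stood at 3154, 4922, 4894 and 4658 CPM against 2082, 2564, 1875 and 1877 CPM (1.07 ± 0.29, adjusted p = 0.00758), a call lost when clone K replicates 3 and 4 were both left out. P4ha3, a prolyl hydroxylase subunit, rose 3.63-fold (1.86 ± 0.14, adjusted p = 8.35e-11). Basement membrane genes rose in 6 of 15 tested and Nid2 fell (median 0.53). Col15a1, which is also a marker of resting fibroblasts, stood at 96.2, 123, 116 and 84.0 CPM against 15.4, 12.7, 11 and 9.28 CPM (3.12 ± 0.26, adjusted p = 1.37e-09), and Col18a1 rose 2.09-fold. The basement membrane count depended on single libraries. It was 2 without clone K replicate 2, 3 without clone K replicate 1 or mono-culture replicate 1, 2 or 3, and 11 without clone K replicate 4, and the call on Nid2 was lost without any 1 library other than clone K replicate 2.

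Matrix proteases and their inhibitors split, with 7 higher and 5 lower of 20 tested and a median of 0.01. Mmp3, stromelysin 1, stood at 9.34, 12.5, 6.13 and 15 CPM against 0.936, 0.935, 0.532 and 0.594 CPM (3.82 ± 0.50, adjusted p = 2.20e-06), and Adam12, a membrane protease of activated stroma, at 45.8, 62.6, 64.6 and 46.2 CPM against 6.88, 6.00, 6.77 and 6.31 CPM (3.08 ± 0.32, adjusted p = 5.55e-08). Mmp2 and Mmp14, a gelatinase and the membrane protease that activates it, fell 1.69-fold and 1.63-fold (adjusted p = 5.57e-04 and 2.08e-04). All 4 were free of overlap. The 5 lower calls were 2 without clone K replicate 4, and 3 without clone K replicate 3 or mono-culture replicate 2, 3 or 4. Fap, the surface protease that marks tumour fibroblasts, was also higher, at 21.5, 33.7, 19.9 and 18.8 CPM against 0.881, 1.27, 1.52 and 0.640 CPM, 22.4-fold higher (4.49 ± 0.29, adjusted p = 2.83e-12), and the groups did not overlap.

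Growth factors rose in 12 of 28 tested, and Figf, the vascular growth factor VEGF-D, fell (median 0.59). Igf1 stood at 179.9, 256, 266 and 239 CPM in clone K and 50.2, 50.7, 37.0 and 53.1 CPM in mono-culture (2.30 ± 0.32, adjusted p = 4.22e-06). Fgf2 rose 4.78-fold, and the EGF receptor family ligands Nrg1, Hbegf and Ereg rose 2.62-fold, 2.45-fold and 2.25-fold. Nrg1, the ligand of ERBB3, stood at 60.2, 59.0, 70.2 and 43.1 CPM against 19.3, 26.1, 18.6 and 24.5 CPM (1.39 ± 0.18, adjusted p = 2.02e-06). These 5 genes did not overlap between groups. Of 7 genes for IGF binding proteins and receptors, Igfbp3 and Igfbp7 rose and Igfbp5 and Igfbp6 fell. Igfbp3, the main IGF carrier of blood, stood at 32.3, 35.6, 39.3 and 25.6 CPM against 1.98, 4.02, 1.52 and 3.11 CPM (3.61 ± 0.58, adjusted p = 4.29e-05). Igfbp5 stood at 1.93, 1.56, 0.106 and 0.360 CPM against 17.3, 13.2, 6.69 and 3.29 CPM (-3.36 ± 0.69, adjusted p = 7.12e-04), with a wide spread in both groups.

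Retinoid genes rose in 6 of 15 tested, Rarres1, Aldh1a2, Crabp2, Stra6, Rarb and Rarg, and Crabp1 fell (median 0.66). Rarres1, named for its induction by retinoic acid, stood at 11.7, 13.1, 8.88 and 4.77 CPM against 0.165, 0.495, 0.456 and 0.229 CPM (4.84 ± 0.64, adjusted p = 2.21e-06). Aldh1a2, an enzyme that makes retinoic acid, rose 13.5-fold and Stra6, the receptor for the retinol carrier, 4.17-fold. Crabp1, a retinoic acid binding protein, stood at 36, 31.3, 30.1 and 39.4 CPM against 250.3, 251, 228 and 216 CPM (-2.79 ± 0.25, adjusted p = 3.46e-09). Rarres1, Stra6 and Aldh1a2 were free of overlap, and so was Crabp1, as the rule for naming it required. Crabp2 followed the order of the epithelial transcripts, at 1.18, 0.650, 5.18 and 4.90 CPM. Among 11 prostaglandin genes Ptgds, Ptger1, Ptgs2 and Ptger4 rose and none fell (median 0.12). Ptgs2, the inducible cyclooxygenase, stood at 58.6, 55.4, 56.5 and 38.7 CPM against 17.4, 28.1, 35.1 and 21.1 CPM (1.05 ± 0.35, adjusted p = 0.0327), and Ptgds at 1.04, 0.780, 8.30 and 7.78 CPM, with replicates 3 and 4 alone above mono-culture. The prostaglandin count was 2 without clone K replicate 3 or mono-culture replicate 2 or 4.

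Markers of resting fibroblasts did not move as 1 group: Col15a1, Sfrp4 and Igf1 rose and Dpt, Sema3c, Cd34 and Efemp1 fell among 17 tested (median -0.04). Over all genes 10.4% rose and 8.69% fell. Dpt, the matrix protein dermatopontin, stood at 14.0, 20.3, 17.3 and 33.9 CPM against 228, 175, 126 and 137 CPM (-2.96 ± 0.35, adjusted p = 4.28e-07), and Cd34 fell 1.90-fold. Neither overlapped between groups, which for Dpt was a condition for naming it. The remaining genes with the lowest fold changes were of several kinds. Sprr1a, a cornified envelope protein that injured cells also make, stood at 46.2, 28.1, 9.46 and 17 CPM against 276, 303, 213 and 168 CPM (-3.25 ± 0.52, adjusted p = 4.09e-05). Apod, a lipid carrier, stood at 1.84, 2.34, 2.22 and 4.09 CPM against 31.9, 17.5, 16.9 and 29.7 CPM (-3.18 ± 0.38, adjusted p = 3.45e-07), and the imprinted gene Mest at 1.93, 1.95, 1.53 and 1.12 CPM against 18.8, 13.8, 8.14 and 11.8 CPM (-3.01 ± 0.37, adjusted p = 5.81e-07). In each of these 3 the highest clone K library was below the lowest mono-culture library, as the rule for naming them required. Cldn1, a claudin that was expressed in mono-culture, fell 6.89-fold (-2.79 ± 0.35, adjusted p = 1.23e-06), opposite to Cldn6. The metallothioneins Mt2 and Mt1, which hold zinc, fell 7.92-fold and 3.43-fold. Of 8 metallothionein and zinc transporter genes tested they fell along with Slc39a8, and Slc39a10 rose. Among genes that fell without overlap, the largest losses in mean CPM were those of Ptn, Cxcl12, Fth1, Hsp90ab1 and Lamp1. Ptn, the growth factor pleiotrophin, stood at 1122, 1527, 1235 and 1455 CPM against 2542, 2663, 2388 and 2149 CPM (-0.87 ± 0.22, adjusted p = 0.00586), and Fth1, the ferritin heavy chain, fell 1.36-fold. The change of Hsp90ab1, a chaperone, was small (-0.38 ± 0.12, adjusted p = 0.0228), and its call was lost without clone K replicate 1 or 2 or mono-culture replicate 2 or 3.

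Lysosomal genes fell in 12 of 21 tested, and none rose (median log2 fold change -0.44). Lamp1, a lysosomal membrane protein, stood at 1087, 1202, 1161 and 1151 CPM against 1652, 1696, 1454 and 1419 CPM (-0.44 ± 0.09, adjusted p = 5.53e-04), with no overlap, as the rule for naming it required. Sterol and fatty acid synthesis genes fell in 8 of 26, and none rose (median -0.42). Insig1, which holds the sterol sensor in the endoplasmic reticulum, fell 1.82-fold and Lss, lanosterol synthase, 1.73-fold (adjusted p = 9.10e-05 and 0.00284). Genes of DNA replication and mitosis fell in 11 of 28, and none rose (median -0.37). Ccnb2, a mitotic cyclin, fell 1.56-fold and Rrm2, a subunit of ribonucleotide reductase, 1.41-fold (adjusted p = 0.0106 and 0.0379). This last count was 5 without clone K replicate 3 or mono-culture replicate 4, 6 without mono-culture replicate 1, 7 without mono-culture replicate 2, and 4 with clone K replicates 3 and 4 left out. Among 19 p53 targets and cell cycle inhibitors, Cdkn2b, Cdkn2a and Phlda3 rose and Cdkn1c, Eda2r and Cdkn2c fell. The shares of all genes were 10.4% and 8.69%. Cdkn2b, an inhibitor of CDK4 that TGF-beta induces, stood at 394, 493, 545 and 361 CPM against 154, 176, 178 and 159.7 CPM (1.42 ± 0.23, adjusted p = 3.10e-05), and Cdkn1c fell 3.95-fold (-1.98 ± 0.26, adjusted p = 1.45e-06). The 3 lower calls were 1 without clone K replicate 3.

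Of 36 ATF4 targets, the genes of the integrated stress response, Vldlr rose (1.10 ± 0.20, adjusted p = 1.67e-04) and Atf5 (-0.65 ± 0.23, adjusted p = 0.0425) and Sars (-0.30 ± 0.10, adjusted p = 0.0398) fell, with a median of -0.05. Together they were 8.33% of the list, below the 19.1% of all genes that differed. The calls on Atf5 and Sars were both lost without clone K replicate 2, 3 or 4 or mono-culture replicate 2, 3 or 4, 1 gene of the list fell without clone K replicate 1, and 3 rose without clone K replicate 4. Of 18 endoplasmic reticulum chaperones only Dnajb11 changed (0.42 ± 0.11, adjusted p = 0.00566, with a median of 0.01), or 5.56%, also below the 19.1% of all genes. NRF2 targets fell in 5 of 15, Nqo1, Gstm1, Pir, Hmox1 and Gsr, and none rose (median -0.11), where 8.69% of all genes fell. Nqo1, a quinone reductase, stood at 18, 17, 18.6 and 25.7 CPM against 42.9, 48.3, 47.9 and 41.5 CPM (-1.18 ± 0.25, adjusted p = 7.98e-04), with no overlap. Of 26 glycolysis and hypoxia genes Vegfa rose and Ndrg1, Gapdh, Pgam1 and Pkm fell (median -0.26), beside 10.4% and 8.69% of all genes. Those 4 calls were 1 without clone K replicate 2 or mono-culture replicate 2, 3 or 4, and 2 without clone K replicate 1 or 3. Ndrg1 fell 1.90-fold (-0.93 ± 0.19, adjusted p = 5.08e-04) without overlap.

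Immediate early genes, which respond within minutes to growth factors, rose in 6 of 20 tested (median 0.44). They were Egr3, Egr1, Dusp6, Egr2, Myc and Fosl2. Egr1 stood at 2062, 1422, 1657 and 749 CPM in clone K and 373, 929, 1015 and 313 CPM in mono-culture (1.16 ± 0.35, adjusted p = 0.0176), and the groups overlapped. The count was 1 without mono-culture replicate 1 or 4 and 2 without clone K replicate 1 or 3. Of 16 clock genes and outputs Arntl and Nr1d1 rose and Hlf fell (median 0.16), near the 10.4% and 8.69% of all genes. Hlf stood at 3.82, 4.81, 2.43 and 4.23 CPM against 14.4, 11.7, 8.97 and 12.1 CPM (-1.63 ± 0.38, adjusted p = 0.00248), with no overlap. The list had 1 higher gene without clone K replicate 3 or mono-culture replicate 1 or 4, and 2 genes of the list fell without clone K replicate 3. Of 13 adipogenic and lipid storage genes Cebpa rose and Fabp5 and Pnpla2 fell (median -0.30), beside 10.4% and 8.69% of all genes. Fabp5, a fatty acid binding protein, fell 2.96-fold (-1.57 ± 0.22, adjusted p = 6.59e-06). In place of 2 genes, 1 gene of the list fell without clone K replicate 1, 2 or 3 or mono-culture replicate 2, 3 or 4, and 4 fell without clone K replicate 4.

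**Figure D4:**
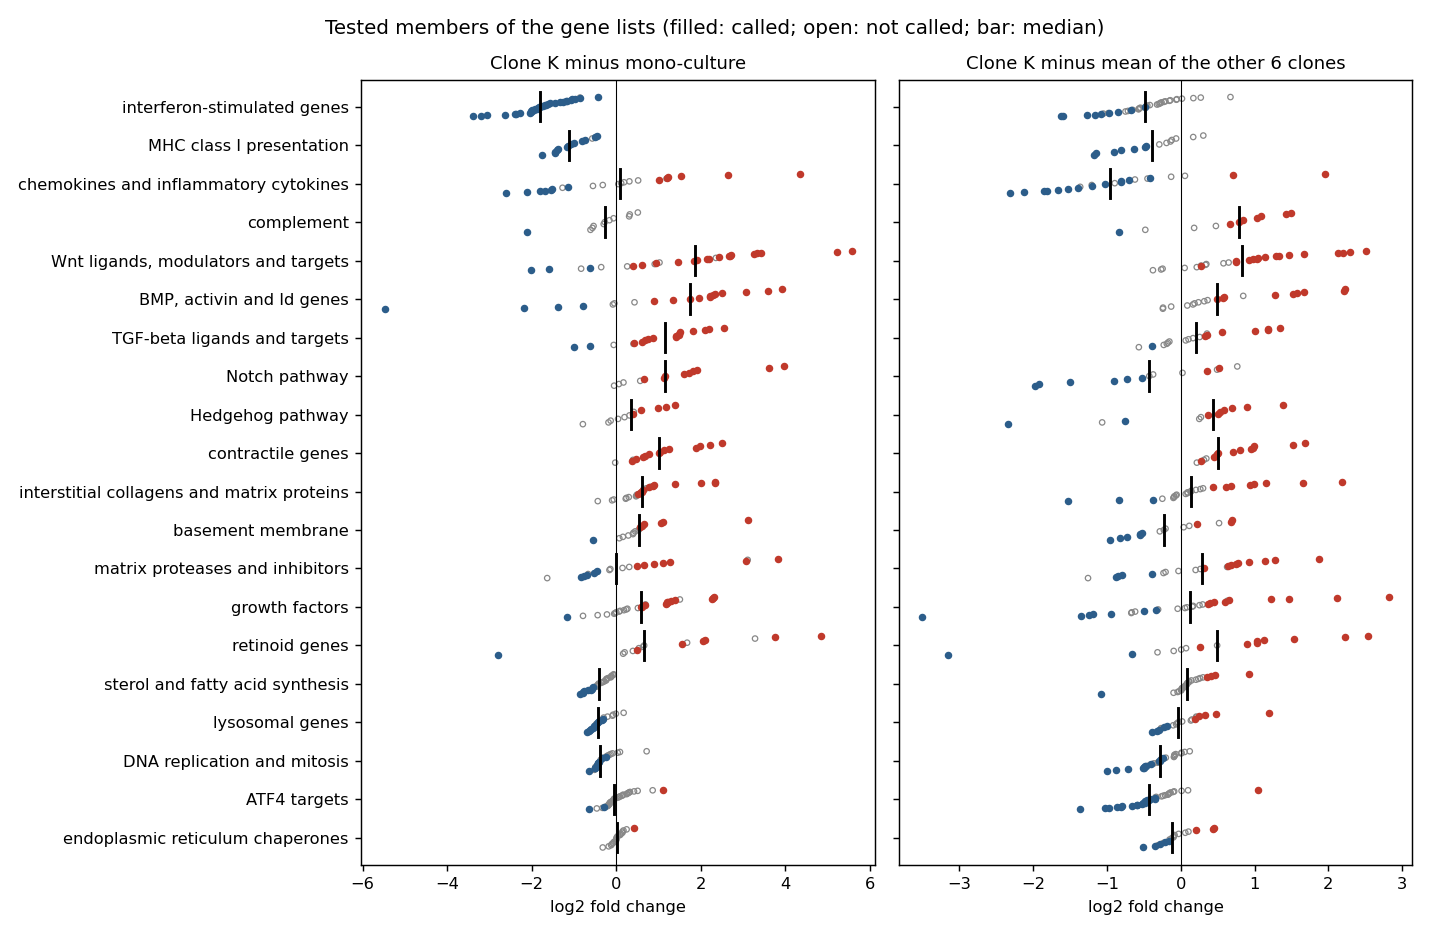
Log2 fold changes of the tested members of 20 gene lists (1 row each), clone K minus mono-culture on the left and clone K minus the mean of the other 6 clones on the right; filled points passed the test (red higher, blue lower), open points did not, and the black bar is the list's median. On the left the interferon-stimulated genes centre at -1.81 and the Wnt genes at 1.87, and on the right these medians are -0.48 and 0.83.

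Clone K co-culture was then set against the mean of the other 6 clonal co-cultures, which were sorted in the same way. This comparison uses the same 4 clone K libraries as the one above, so the 2 are not independent, and the values are given side by side. Of the 14439 genes, 3113 were higher in clone K co-culture (21.6%) and 2917 lower (20.2%), with 654 and 342 at least 2-fold. Counts of list members in this comparison are to be read beside these shares, and a count near them is no result about its list. The epithelial markers did not rise here: of the 12 tested none was higher, and Krt19, Cdh1 and Spint1 were lower, with a median of -0.79. This median was -0.51 and -0.47 without clone K replicate 1 and 2, and with replicates 3 and 4 left out it was -2.02, with 6 markers lower. Krt8 stood at a mean of 67.9 ± 62.1 CPM with clone K and at 19.5 ± 17.7 to 156 ± 23.9 CPM with clones V to N (mean ± SD), and 92.4 CPM over the 6.

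The 8 genes named as highest with clone K over each of the other clones were of several kinds, and not all of them had risen against mono-culture. Ndnf, a secreted neurotrophic protein, stood at 29.3, 33.7, 26.1 and 18.1 CPM in clone K, and the means of the other clones ran from 0.615 ± 0.174 CPM for clone H to 6.95 ± 3.85 CPM for clone N (3.42 ± 0.25, adjusted p = 3.68e-11). It had also risen from the 2.90 ± 0.470 CPM of mono-culture (adjusted p = 2.15e-06). Gdpd2, a membrane phosphodiesterase, stood at 29.7, 65.2, 40.4 and 41.6 CPM, against 0.865 ± 0.408 to 22.5 ± 8.92 CPM in clones H and N (3.01 ± 0.27, adjusted p = 2.43e-09), and did not pass the test against the 25.9 ± 6.69 CPM of mono-culture (adjusted p = 0.196). Tmod2, a tropomodulin that caps actin filaments, stood at 13.8, 25.2, 16.6 and 12.1 CPM, and the highest other clone was M with 14.3 ± 5.44 CPM (2.95 ± 0.22, adjusted p = 4.03e-11). The clone K mean of Tmod2, 16.9 ± 5.80 CPM, was close to the 16.9 ± 0.913 CPM of mono-culture (adjusted p = 0.998). Clone M was near clone K for Tmod2, and clones H, T and V were the lowest for all 3 genes. Omd, the keratan sulfate proteoglycan osteomodulin (2.77 ± 0.27), Tnfrsf19, a receptor that Wnt signalling induces (2.71 ± 0.36), and Plxna4, a semaphorin receptor (2.70 ± 0.29), were higher in clone K, as were the growth factor receptor Fgfr2 (2.67 ± 0.23) and Rarres1 (2.54 ± 0.33). Their adjusted p values lay between 1.14e-09 for Fgfr2 and 8.62e-07 for Tnfrsf19. These 5 genes had risen against mono-culture as well.

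At the other end, H19, an imprinted noncoding RNA, stood at 2.22, 0.390, 0.317 and 0.270 CPM in clone K and at 2.37 ± 1.13 CPM for clone M to 128 ± 49.7 CPM for clone V (-3.76 ± 0.68, adjusted p = 7.38e-05). Cdh15, a cadherin, stood at 1.79, 1.24, 0.846 and 1.30 CPM, below the 6.03 ± 0.557 CPM of the next lowest clone, M (-2.92 ± 0.41, adjusted p = 2.59e-06). Abcb1a, a drug efflux pump, stood at 2.22, 0.845, 1.43 and 0.630 CPM, and Itgb7, an integrin subunit, at 0.990, 0.780, 0.687 and 1.03 CPM (-2.76 ± 0.44 and -2.61 ± 0.49). Clone M lay closest to clone K for H19, Cdh15 and Abcb1a. Against mono-culture Cdh15 was higher in clone K (2.89 ± 0.75, adjusted p = 0.00605), and H19, at 2.88 ± 1.09 CPM in mono-culture, did not pass the test (adjusted p = 0.126), nor did Abcb1a or Itgb7. Padi2 (-3.63 ± 0.71), Rbp4 (-3.15 ± 0.66), Celsr1 (-2.77 ± 0.64) and Acsbg1 (-2.73 ± 0.51) were lower in clone K too, and in these 4 clone K replicate 3 or 4 was the highest of its group, as with the epithelial transcripts. Their adjusted p values were 1.96e-04, 3.83e-04, 0.00105 and 1.08e-04.

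Contractile genes were higher than in the other 6 co-cultures in 11 of 15 tested and lower in none (median 0.51), or in 7 without clone K replicate 1, with Myl9 at 216 ± 79.5 CPM against 70.0 CPM (1.68 ± 0.20, adjusted p = 1.61e-07). Wnt genes were higher in 16 of 26 and lower in none (median 0.83), and the BMP, activin and Id list in 9 of 19 with none lower (median 0.49). The Wnt count was 10 without clone K replicates 3 and 4, 1 Wnt gene was lower without replicate 3 or with the replicate number as a block, and 1 gene of the BMP list was lower without replicate 1. TGF-beta genes were higher in 7 and lower in 1 of 18 (median 0.21). The 7 became 4 without clone K replicate 2 or 3, and the median was 0.11 without replicate 3 and 0.35 without replicate 4. No TGF-beta gene was lower without replicate 2 or 4, and 2 were without replicate 3 or with the block. Interferon-stimulated genes were lower in 9 of 37 and higher in none (median -0.48), a share near the 20.2% of all genes that were lower. Their 9 became 5 without clone K replicate 2 or 3 and 3 without replicates 3 and 4 together, and 1 was higher without replicate 2 or with the block. MHC class I genes were lower in 7 of 14 (median -0.38) and in 4 without clone K replicate 2 or 3. Rsad2 stood at 1.66 ± 0.293 CPM with clone K and 6.69 CPM over the other 6 clones (-1.59 ± 0.36, adjusted p = 8.36e-04).

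Notch genes were lower than the other co-cultures in 6 of 13 and higher in 2 (median -0.43), and Nrarp stood at 1.30 ± 0.765 CPM against 5.54 CPM (-1.98 ± 0.45, adjusted p = 9.18e-04). The 2 higher calls of the list were 1 without clone K replicate 1, 2 or 4 and 0 without replicate 3, the median was -0.25 without replicate 4, and 3 genes were lower without replicates 3 and 4 together. Gli1, a Hedgehog target, stood at 1.76 ± 0.360 CPM with clone K and 3.03 ± 1.12 to 17.8 ± 9.84 CPM with clones E to M (-2.34 ± 0.29, adjusted p = 3.70e-07), while 7 of the 12 Hedgehog genes were higher and 2 lower. Rspo2 and Cxcl12, which fell against mono-culture, were higher than in the other co-cultures, at 10.8 ± 3.56 against 2.57 CPM (2.29 ± 0.27, adjusted p = 1.35e-07) and 673 ± 52.4 against 196 CPM (1.95 ± 0.24, adjusted p = 4.06e-07). For both genes clone K lay between mono-culture and each of the other 6 clones. Hlf (2.59 ± 0.28) and Igfbp5 (2.45 ± 0.55) lay between them too. Fap, 22.4-fold higher than mono-culture, was lower than in the other co-cultures (-0.75 ± 0.17, adjusted p = 7.23e-04).

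**Figure D5:**
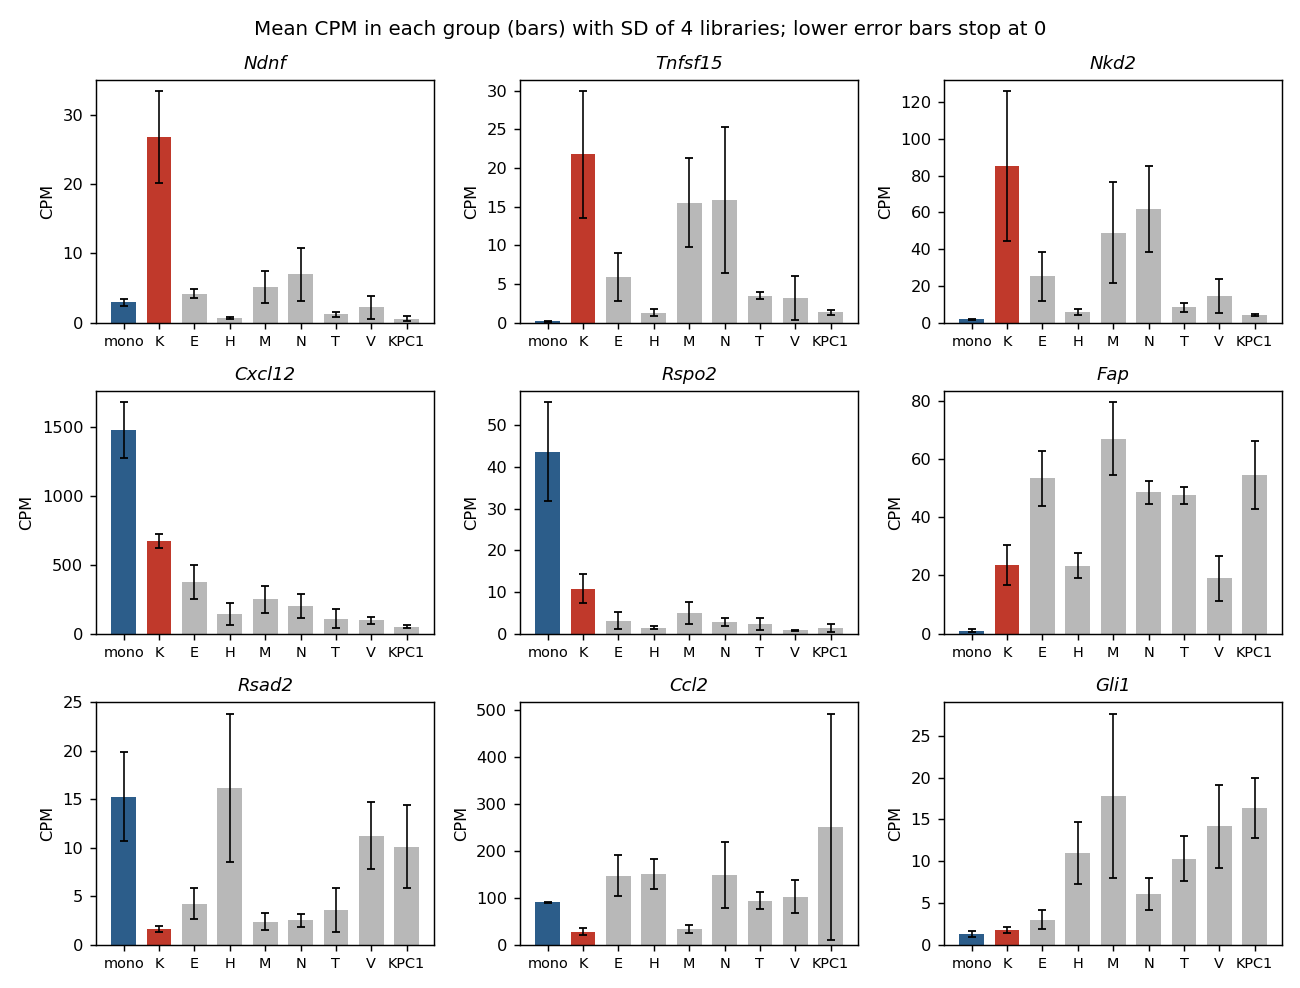
Mean CPM (bars) and SD of 4 libraries in each of the 9 groups for 9 genes, with mono-culture in blue, clone K in red and the other co-cultures in grey. Ndnf, Tnfsf15 and Nkd2 are highest with clone K, Cxcl12 and Rspo2 lie between mono-culture and the other co-cultures, and Gli1 with clone K (1.76 ± 0.360 CPM) is near mono-culture (1.32 ± 0.364 CPM).

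The chemokine, NF-kappaB and ATF4 lists held more lower than higher genes against the other co-cultures. Of 22 chemokines and cytokines 13 were lower and 2 higher (median -0.96), and Ccl2 stood at 28.1 ± 8.08 CPM with clone K, 33.9 ± 8.0 CPM with clone M and 93.9 to 151 CPM with the remaining 5 (-1.85 ± 0.36, adjusted p = 1.77e-04). NF-kappaB feedback genes were lower in 8 of 15 and higher in none (median -0.47), immediate early genes lower in 8 of 20 and higher in 1, and prostaglandin genes lower in 6 of 11 and higher in 2. The 8 lower immediate early genes were 4 without clone K replicate 2 or 4 and 5 without replicate 3, and none was higher without replicate 3 or 4. ATF4 targets were lower in 21 of 36 and higher in 1 (median -0.43), but lower in 13 without clone K replicate 3, in 7 without replicate 4 and in 4 without both (median -0.21). Asns, asparagine synthetase and a target of ATF4, stood at 156 ± 58.2 CPM with clone K, 331 CPM over the other 6 clones and 173 ± 27.9 CPM in mono-culture (-0.86 ± 0.18, adjusted p = 3.76e-04 against the 6). Glycolysis and hypoxia genes were lower in 11 of 26 and higher in 1 (median -0.34), and replication and mitosis genes lower in 13 of 28 and higher in none (median -0.29). The glycolysis count was 7 without clone K replicate 2, and its higher gene was lost without replicate 2 or 3. Without replicates 3 and 4 together the lower counts were 7 and 8. Endoplasmic reticulum chaperones were lower in 5 and higher in 3 of 18 (median -0.11), and NRF2 targets lower in 6 and higher in 3 of 15 (median -0.16). Over all genes 20.2% were lower and 21.6% higher, and both chaperone counts and the 3 higher NRF2 targets were near these shares. The 5 lower chaperones were 3 without clone K replicate 3 or 4, where the median without replicate 4 was -0.05, and the 3 higher NRF2 targets were 1 without replicate 1, 3 or 4, with a median of -0.10 without replicate 2.

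The resting fibroblast, complement and retinoid lists held more higher than lower genes. Resting fibroblast markers were higher than in the other co-cultures in 9 of 17 and lower in 2 (median 0.46), complement genes higher in 7 of 11 and lower in 1 (median 0.79), and retinoid genes higher in 8 of 15 and lower in 2 (median 0.49). With clone K replicates 3 and 4 left out, 5 resting fibroblast markers (median 0.22) and 5 retinoid genes (median 0.16) were higher. The lower resting fibroblast markers were 1 without clone K replicate 1 or 4, and no complement gene was lower without replicate 3. The fibroblast markers themselves were higher in 6 and lower in 4 of 12, or in 2 without clone K replicate 1 or 2, with Lum, the proteoglycan lumican, at 11.6, 12.4, 8.04 and 8.05 CPM against 2.81 CPM over the 6 (2.19 ± 0.30, adjusted p = 1.62e-06). C3, lower than mono-culture, was higher than in the other co-cultures (1.42 ± 0.38, adjusted p = 0.00365). Matrix lists and growth factors held calls in both directions, with 8 higher and 3 lower of 25 interstitial matrix genes, 5 and 5 of 16 collagen-processing enzymes, 3 and 6 of 15 basement membrane genes, 9 and 4 of 20 proteases and inhibitors, and 9 and 7 of 28 growth factors. Over all genes 21.6% were higher and 20.2% lower, and several of these counts were near those shares. With clone K replicates 3 and 4 left out, the lower calls were 1 for interstitial matrix, 3 for processing enzymes and 3 for basement membrane genes. Of 26 sterol and fatty acid synthesis genes 4 were higher and 1 lower, with 1 higher without clone K replicate 3.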

How the data were processed

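Gene counts and RPKM values were those deposited by the authors. The submitters' processing notes name STAR, featureCounts, edgeR and mm10, without versions or roles, and whether counting used strand is not given in the sources used here. Counts entered edgeR 4.0.16 in R 4.3.3 as deposited, with TMM scaling, the filterByExpr filter over the 9 groups and a robust quasi-likelihood fit of all 36 libraries, which share 1 estimate of the spread. The 2 contrasts were clone K minus mono-culture and clone K minus the mean of clones E, H, M, N, T and V. The scripts were tested on simulated data. Any 2 libraries of each of the 9 groups differed by more than counting noise (smallest chi-square per degree of freedom 5.84), so each was kept as a sample. Deposited RPKM served only for the limma 3.58.1 alternatives, on log2(RPKM + 1) and log2(RPKM + 0.1).

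The genes named were those called, at 5 CPM or more in the higher group and without overlap of libraries, with the 12 highest and 12 lowest fold changes and the 5 highest and 5 lowest differences in mean CPM, and for the contrast with the other clones, those with clone K beyond each clone, the 8 highest and 8 lowest. Members of 39 gene lists could also be named. Members and lists were chosen with earlier results of these data known. Adgre1, Amy2a, Ifit3b, Msmo1 and Ciart were not analysed here. Results for some members of the lists are not reported here. Where a group had no count, a fold was computed against 3 counts per library, and with 1 to 3 counts in all, a ratio with its exact 95% interval is given, and both cover counting error only. Same-numbered libraries of clone K and of the mean of the other 6 clones deviated together (correlations 0.23, 0.49, 0.49 and 0.52 for replicates 1 to 4). The numbers were therefore taken as pairing these libraries. The titles number the co-cultures in sets by replicate but state no pairing, so this rests on the data. Correlations with single clones ran from -0.23 (clone N) to 0.58 (clone M), and clone K replicate 1 correlated best with number 2. Unless another fit is named, the counts, standard errors and p values printed are from the fit without a replicate block. They leave this pairing out. As alternatives the scaling (RLE, or totals alone), the filter (none), the tool (DESeq2 1.42.0), a replicate block, a fit of the 8 libraries alone and the leaving out of libraries were tried. Promoter windows came from RefSeq on GRCm38.p6.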

Additional observations from a re-analysis of the deposited data

Results flagged for a closer look

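Among 110 sets of 4 libraries examined, 7 held a library far from the other 3 by Dixon's criterion. Its nominal rate by chance is about 1 set in 20, which does not hold for sets with counts in 1 library only. In 4 of the 7 the mono-culture group had its only counts in 1 library, a case the criterion always flags. These were Krt8 at 0.0914 CPM and Tspan8 at 0.0914 CPM in replicate 4, Cadm1 at 0.110 CPM in replicate 1 and Ifi202b at 0.0761 CPM in replicate 3. The other 3 libraries were at 0 each time. The remaining 3 of the 7 sets were in clone K. Bgn stood at 4301 CPM in replicate 4 and at 6740.1 to 6881 CPM in the others. Lox stood at 3154 CPM in replicate 1 and at 4658 to 4922 CPM in the others. H19 stood at 2.22 CPM in replicate 1 and at 0.270 to 0.390 CPM in the others.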

How the results depend on the processing

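Against mono-culture, the 2763 differing genes became 2788 with RLE scaling, 2764 with no scaling beyond library size, 2287 with no filter, 3046 in DESeq2, 2897 and 2811 in limma with a pseudocount of 1 and 0.1, 3820 with the 8 libraries alone, and 1961 (without clone K replicate 3) to 2816 (without clone K replicate 4) with 1 library left out. Against the other 6 clones the 6030 became 5706 to 6178 under the scaling, filter, DESeq2 and limma alternatives and 4572 (without clone K replicate 2) to 5224 with 1 clone K library left out. No gene called in both a main and an alternative fit changed direction. Medians of several gene lists against the other clones moved by over 1.5 times when a clone K library was left out. Medians against mono-culture moved too. In limma on log2(RPKM + 1) they were 0.70 for Wnt, 0.39 for Notch, 0.67 for TGF-beta and 0.28 for growth factor genes. Over the alternatives the median ran from -0.21 to 0.20 for ATF4 targets, from -0.05 to 0.20 for p53 targets and from 0.21 to 0.70 for immediate early genes.

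Leaving out clone K replicates 3 and 4 together was chosen after seeing the data. It gave 1935 genes against mono-culture and 4112 against the other clones, where the higher genes fell from 3113 to 2021. Nptx1, Lox, Col6a1 and Cxcl12 then lost their calls against mono-culture. Cxcl12 also lost its call with no filter on low counts (adjusted p = 0.066) and Hsp90ab1 with the 8 libraries alone (adjusted p = 0.0558). The cause was not tested.

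With the replicate number as a block over all 36 libraries, 3543 genes differed from mono-culture and 6804 from the other 6 clones. No named gene lost its call. The deviations of same-numbered clone K and mono-culture libraries correlated at 0.26, 0.03, 0.03 and -0.03, so those numbers were not taken as pairs. The block held the mono-culture libraries by number all the same, so its 3543 genes rest on numbers not taken as pairs. The epithelial transcripts of clone K replicates 3 and 4, the unknown sorting of the mono-culture cells and groups of 4 libraries limit what the counts can show.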
